A study of Mus musculus with 8 samples.

Results

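The AP-1, Egr and Nr4a immediate early genes were followed across sorted bone marrow populations of normal and chronic myeloid leukaemia (CML)-affected mice. The 10 members were chosen by gene symbol (Fos, Fosb, Jun, Junb, Jund, Egr1, Egr3, Nr4a1, Nr4a2 and Ier2), all 10 were found among the 20207 genes listed, and all 10 exceeded the minimum of a summed 1 RPKM over the libraries (12561 genes). RPKM is a read count divided by transcript length and library size, so levels of different genes are compared per length. The study addressed how CML stem cells differ from normal haematopoietic stem cells (HSCs). RNA sequencing gave 8 libraries of 6 populations. Long-term (LT) stem cells were sorted as CD150+CD48-CD135- cells and short-term (ST) stem cells as CD150-CD48-CD135- cells of the KLS+ (cKit+Lineage-Sca-1+) fraction, and committed progenitors as KLS- (cKit+Lineage-Sca-1-) cells. Normal mice gave 2 LT-HSC libraries, labelled 2 months and 6 months of age, and 1 library each of ST-HSCs and normal KLS- cells, both labelled 2 months. CML-affected mice gave 2 LT-CML libraries and 1 library each of ST-CML stem cells and CML-KLS- cells, with no age in the labels. By the study's methods the CML-affected mice carried Tal1-tTA and TRE-BCR-ABL1 and were taken off doxycycline (DOX) to switch on BCR-ABL1, so that the oncogene depends on cells in which the Tal1 element drives tTA, and the healthy littermate controls carried Tal1-tTA alone. The labels give C57BL/6 for all 8 libraries, whereas the methods describe an FVB/N background, and the labels do not say whether a library pooled several mice.

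On mm9, as annotated by GENCODE M1, most members are short genes. Junb (chr8:87500811-87502617, minus strand) and Ier2 (chr8:87185230-87186751, minus strand) have 1 annotated exon and lie on the same chromosome as Jund (chr8:73221638-73224515, plus strand). Jun is at chr4:94715725-94718913 (minus strand). Fos (chr12:86814840-86818223, plus strand) has 3 or 4 exons, and Fosb (chr7:19888070-19895394, minus strand) has 4. Egr1 (chr18:35020861-35024638) and Egr3 (chr14:70477252-70479964) are on the plus strand with 2 or 3 exons. Nr4a1 (chr15:101097277-101105223, plus strand) has 7 exons, and Nr4a2 (chr2:56959241-56976414, minus strand) has up to 8.

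Immediate early genes are transcribed within minutes of a signal, without new protein synthesis, through kinases that act on factors already bound at their promoters, such as SRF with its Elk partners and CREB. Fos-family proteins (Fos, Fosb) pair with Jun-family proteins (Jun, Junb, Jund) to form AP-1. Egr1 and Egr3 are zinc-finger factors, Nr4a1 and Nr4a2 are orphan nuclear receptors that need no known ligand, and Ier2 encodes a small nuclear protein. Egr1 and the Nr4a receptors are known for restraining stem cell proliferation in bone marrow, and Junb for restraining myeloid expansion.

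RefSeq promoter windows on GRCm38.p6, from 250 bases before to 50 bases after the transcript start, were matched by symbol for 7 of the 10 members; Egr1, Egr3 and Ier2 had none in the table. The 250 bases before the start are shown for both Nr4a genes, the members with the largest differences between CML and normal stem cells, and for Fos and Junb as AP-1 members that differed less. Capitals mark the half-site of the cAMP response element (CRE), TGACG or its reverse complement CGTCA, the core letters that CREB family proteins read. The windows are chr15:101266596-101266845 (plus strand) for Nr4a1, chr2:57124004-57124253 (minus strand) for Nr4a2, chr12:85473640-85473889 (plus strand) for Fos and chr8:84978749-84978998 (minus strand) for Junb.
Nr4a1: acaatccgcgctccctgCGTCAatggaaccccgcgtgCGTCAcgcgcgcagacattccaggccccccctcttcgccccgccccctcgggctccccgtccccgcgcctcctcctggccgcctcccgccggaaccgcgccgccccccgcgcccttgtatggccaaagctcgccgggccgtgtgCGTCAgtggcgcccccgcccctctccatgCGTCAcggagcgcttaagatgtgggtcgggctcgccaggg
Nr4a2: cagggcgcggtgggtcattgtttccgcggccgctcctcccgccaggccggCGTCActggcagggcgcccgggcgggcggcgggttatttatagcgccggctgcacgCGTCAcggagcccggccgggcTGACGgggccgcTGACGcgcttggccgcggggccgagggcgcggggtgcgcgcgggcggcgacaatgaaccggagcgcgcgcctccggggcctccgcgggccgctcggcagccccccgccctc
Fos: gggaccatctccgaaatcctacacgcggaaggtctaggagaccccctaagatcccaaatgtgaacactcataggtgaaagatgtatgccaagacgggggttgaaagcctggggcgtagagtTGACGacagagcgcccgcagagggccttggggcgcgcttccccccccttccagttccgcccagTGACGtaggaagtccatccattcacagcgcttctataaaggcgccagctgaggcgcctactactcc
Junb: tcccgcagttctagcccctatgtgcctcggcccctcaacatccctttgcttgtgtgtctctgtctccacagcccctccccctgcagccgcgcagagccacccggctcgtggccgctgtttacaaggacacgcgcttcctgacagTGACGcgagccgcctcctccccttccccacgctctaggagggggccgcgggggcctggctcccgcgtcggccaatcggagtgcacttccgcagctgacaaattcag

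Nr4a1 held 4 half-sites, 233, 213, 69 and 40 bases before the start, and Nr4a2 also held 4, at 200, 144, 123 and 111 bases. Fos held 2, at 129 and 66 bases, Junb 1, at 106 bases, and Fosb 1, at 60 bases. Jun and Jund held none. Thus 5 of 7 member windows held at least 1 half-site, as did 20.8% of all 32851 windows. The half-site holds the letters CG. The G and C content of the member windows was 46.7% (Jund) to 81.7% (Nr4a2), with Nr4a1 at 72.3%. The windows compared were not matched for it, so the shares do not show enrichment. Egr sites (GCGGGGGCG or CGCCCCCGC) were found in the windows of Nr4a1 and Fosb and in 2.91% of all windows. The full CRE (TGACGTCA, which contains the half-site on both strands), the AP-1 site (TGACTCA or TGAGTCA) and the CArG box to which SRF binds were searched on both strands in the same way. None of the 7 windows held any of the 3, against 1.79%, 5.20% and 1.63% of all windows. Sites more than 250 bases before the start, and those of Egr1, Egr3 and Ier2, were not searched. The members may therefore hold such sites elsewhere. A match describes letters in the window and not binding.

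The 8 libraries had an estimated 17.8 to 23.9 M reads. Of the sorting markers, Slamf1 (CD150) was at 10.7 to 35.5 RPKM in the 4 LT libraries and at 0.955 to 2.87 RPKM in the other libraries, and Ly6a (Sca-1) at 72.4 to 152 RPKM in stem cells against 8.16 and 11.7 RPKM in KLS- cells. The ST libraries, gated as CD135- and CD48-, had transcripts of both markers. In these libraries Flt3 (CD135) was at 61.6 and 71.6 RPKM and Cd48 at 41.8 and 45.2 RPKM. Both transcripts were also higher in LT-CML than in LT-HSCs, under the same gate. So was Slamf1, at 35.5 and 25.4 RPKM in LT-CML against 14.3 and 10.7 RPKM in LT-HSCs. Flt3 was at 11.9 and 19.2 RPKM in LT-CML against 3.95 and 2.52 RPKM in LT-HSCs. Cd48 was at 16.8 and 29.5 RPKM against 10.45 and 5.17 RPKM. Whether this bears on the member differences between LT-CML and LT-HSCs was not tested. The LT-HSC library labelled 6 months stood apart from the other LT-HSC library. Its 12 measured granulocyte and monocyte markers summed to 4049 RPKM against 585 RPKM, with the neutrophil transcript S100a8 at 1802 against 214 RPKM. The 6-month library had Ddx3y (Y-linked) at 31.0 RPKM and Xist at 0.154 RPKM against 0 and 27.3 RPKM. The LT-CML replicate 2 library had both Ddx3y (17.5 RPKM) and Xist (13.5 RPKM), and a marker sum of 2719 RPKM against 327 RPKM in LT-CML replicate 1. The sum was 271 RPKM in ST-HSCs, 1564 RPKM in ST-CML stem cells, and 9538 and 15612 RPKM in normal and CML KLS- cells. In LT-CML replicate 2, ST-CML and both KLS- libraries its largest member was Mpo, an enzyme already made by myeloid progenitors (1291, 830, 7891 and 13120 RPKM). Whether other cells added to the member levels was not tested; results that rest on the 6-month library are given with and without it.

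The members covered a wide range of levels per length. Fos, the AP-1 subunit induced fastest by most signals, was the member with the highest RPKM in every library, at 382 (2 months) and 574 (6 months) in LT-HSCs, 702 in ST-HSCs, 367 in normal KLS- cells, 714 and 408 in LT-CML replicates 1 and 2, 918 in ST-CML stem cells and 232 in CML-KLS- cells. It ranked between 63rd and 289th among all 20207 genes. The highest Fos level was thus in ST-CML stem cells and the lowest in CML-KLS- cells. Nr4a1 came next in all 3 normal stem cell libraries, at 252 and 368 RPKM in LT-HSCs and 251 RPKM in ST-HSCs, was at 80.8 and 126 RPKM in LT-CML and 81.8 RPKM in ST-CML, and was at 7.76 RPKM in normal and 3.29 RPKM in CML KLS- cells. The Nr4a1 values of the normal stem cells, the CML stem cells and the KLS- cells did not overlap, and the highest was in the 6-month LT-HSC library.

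Egr1 was at 81.6 and 199 RPKM in LT-HSCs, 64.1 RPKM in ST-HSCs, 90.4 and 84.8 RPKM in LT-CML, 54.4 RPKM in ST-CML, and 15.5 and 4.68 RPKM in normal and CML KLS- cells. Apart from the 6-month library, the stem cell values of Egr1 lay close together and the normal and CML ranges overlapped. Egr3, a target of the same signals, was the lowest member in each library, at 1.81 and 2.40 RPKM in LT-HSCs, 0.376 RPKM in ST-HSCs, 0.546 and 0.465 RPKM in LT-CML, 0.105 RPKM in normal KLS- cells and 0 in ST-CML and CML-KLS- cells. The estimated reads behind Egr3 were 53 and 84 in LT-HSCs, 17 and 12 in LT-CML, 10 in ST-HSCs and 3 in normal KLS- cells, and a count of 0 allows up to 0.110 RPKM in ST-CML and 0.115 RPKM in CML-KLS- cells (3 reads, counting error only). The counting error of Egr3 was at least 10.9% in each library, and its differences among KLS- and ST-CML cells were not detectable at this depth.

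Nr4a2 was at 26.6 and 77.5 RPKM in LT-HSCs, 12.5 RPKM in ST-HSCs, 9.01 and 12.3 RPKM in LT-CML, 4.24 RPKM in ST-CML, and 1.11 and 0.371 RPKM in normal and CML KLS- cells. The 2 LT-HSC libraries of Nr4a2 differed by 2.92-fold, the widest replicate gap of any member. Fosb was at 42.5 and 65.6 RPKM in LT-HSCs, 30.2 and 33.5 RPKM in LT-CML, 23.0 and 22.6 RPKM in ST-HSCs and ST-CML stem cells, and 16.1 and 7.64 RPKM in normal and CML KLS- cells. Jun was at 28.1 and 41.9 RPKM in LT-HSCs, 22.6 and 23.5 RPKM in LT-CML, 20.4 and 18.9 RPKM in ST-HSCs and ST-CML, and 18.7 and 9.02 RPKM in normal and CML KLS- cells. For both Fosb and Jun the order was LT-HSC, LT-CML, ST, KLS-, although the LT-CML and ST values of Jun and the ST and normal KLS- values of Jun lay near each other.

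The remaining members were Junb (8.51 to 19.4 RPKM in stem cells, 3.22 and 1.40 RPKM in normal and CML KLS- cells), Jund, the Jun protein present in most resting cells (6.21 to 18.0 RPKM in stem cells, 3.36 and 2.79 RPKM in KLS- cells), and Ier2 (37.2 to 59.2 RPKM in stem cells, 15.8 and 12.9 RPKM in KLS- cells). The composition of AP-1 transcripts differed between populations as a description: Fos exceeded Fosb by 8.98-fold and 8.76-fold in LT-HSCs, 23.7-fold and 12.2-fold in LT-CML, 30.5-fold in ST-HSCs, 40.6-fold in ST-CML, and 22.8-fold and 30.3-fold in normal and CML KLS- cells. Fos exceeded Nr4a1 by 1.51-fold to 2.80-fold in normal stem cells, 3.23-fold to 11.2-fold in CML stem cells, and 47.2-fold and 70.5-fold in normal and CML KLS- cells.

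**Figure D1:**
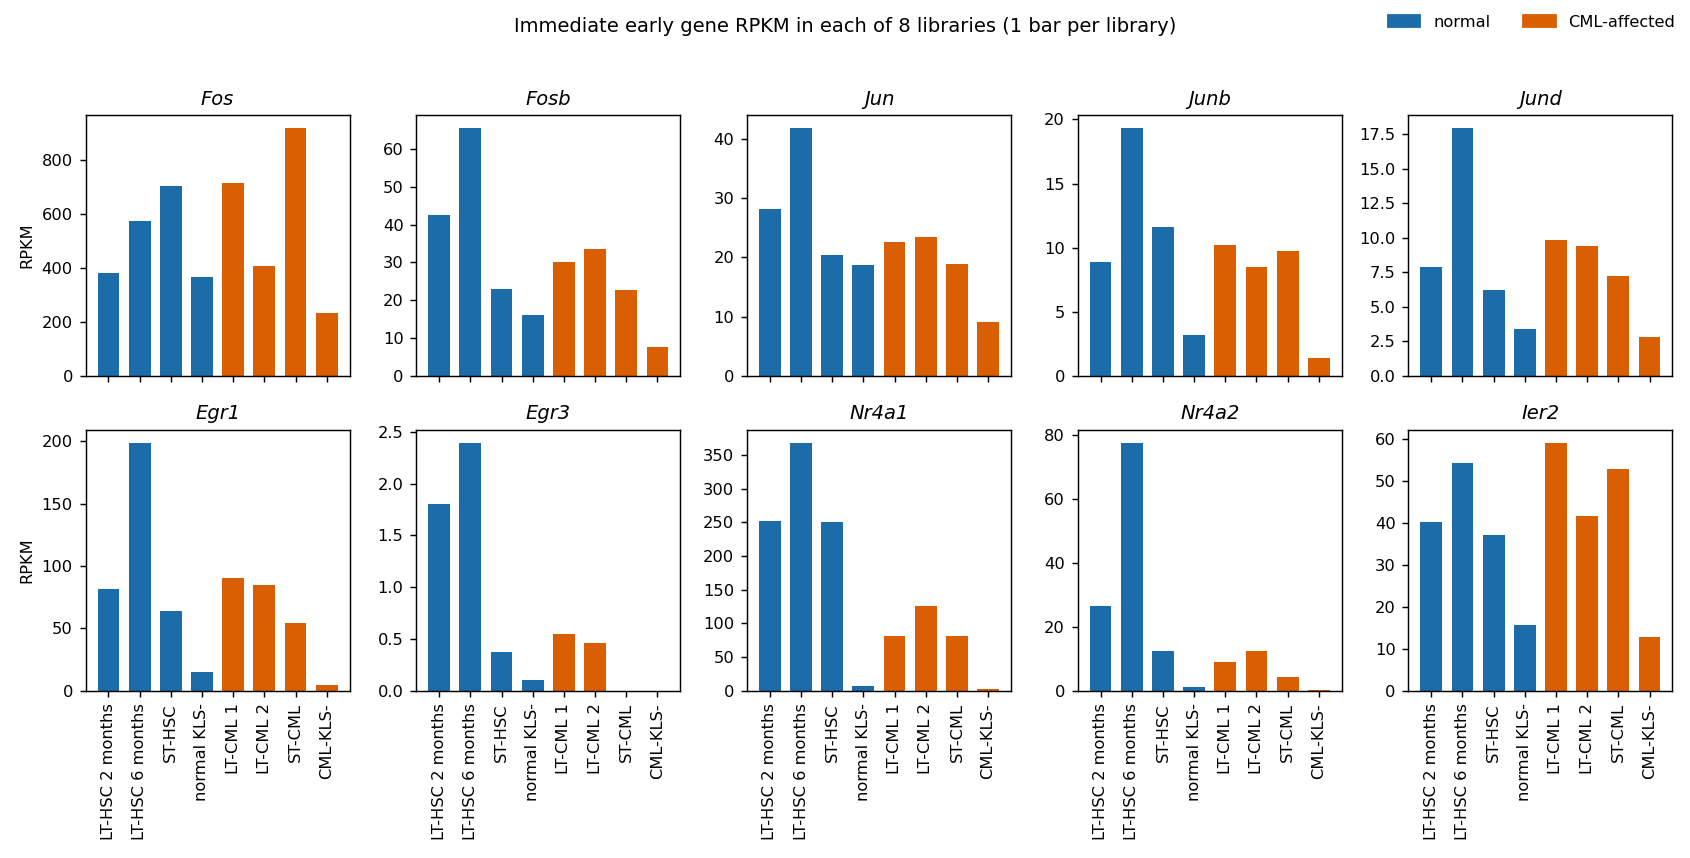
RPKM (vertical axis, linear, a separate scale for each gene) of the 10 immediate early genes in each of the 8 libraries (1 bar a library; blue, normal; orange, CML-affected). Nr4a1 is between 251 and 368 RPKM in the 3 normal stem cell libraries and between 80.8 and 126 RPKM in the 3 CML stem cell libraries, while Fos overlaps between them.

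Every member was higher in stem cells than in KLS- progenitors. All 10 of 10 passed the test (limma across all genes on log2(RPKM + 1), populations and disease as additive terms, 6 against 2 libraries, Benjamini-Hochberg adjustment, adjusted p under 0.05), where 26.5% of all 12561 genes were higher and 22.2% lower. The Nr4a and Egr1 transcripts had the largest differences. Nr4a1 was higher by 4.70 on the log2(RPKM + 1) scale (standard error (SE) 0.22, adjusted p = 7.23e-06 by limma), with a mean of 193 ± 116 RPKM (SD, n = 6) against 5.53 ± 3.16 RPKM (SD, n = 2). Egr1 was higher by 3.05 (SE 0.33, adjusted p = 0.000201) and Nr4a2 by 3.04 (SE 0.40, adjusted p = 0.000482 by limma). The groups of each of these 3 genes were far apart, with the lowest stem cell library at 80.8, 54.4 and 4.24 RPKM and the highest KLS- library at 7.76, 15.5 and 1.11 RPKM.

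The AP-1 members and Ier2 differed less between stem cells and KLS- cells. Junb was higher by 1.90 (SE 0.25, adjusted p = 0.000520 by limma), Ier2 by 1.63 (SE 0.20, adjusted p = 0.000333), Fosb by 1.38 (SE 0.22, adjusted p = 0.00110) and Jund by 1.23 (SE 0.26, adjusted p = 0.00455). Fos was higher by 1.12 (SE 0.27, adjusted p = 0.00911), Jun by 0.80 (SE 0.20, adjusted p = 0.00948) and Egr3 by 0.60 (SE 0.19, adjusted p = 0.0272 by limma). The median difference of the 10 members was 1.51, and that of all genes was 0.08. For 9 of 10 members every stem cell library exceeded both KLS- libraries, as for 27.7% of all genes, and Egr3 overlapped because ST-CML was at 0. An exact two-sided permutation test of single genes gave p = 0.0357 for these 9 members, the smallest value that 6 against 2 libraries allow, and p = 0.179 for Egr3.

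Fos, Jun and Jund rested on the CML-KLS- library: without it their differences were 0.66, 0.52 and 1.19 and the adjusted p values 0.180, 0.176 and 0.0540 by limma. Egr3 lost its call without the normal KLS- library (0.25, adjusted p = 0.412), without ST-CML (0.53, adjusted p = 0.0875), with no minimum on RPKM (adjusted p = 0.0593) and under quantile normalization (0.46, adjusted p = 0.0585 by limma). Nr4a1, Nr4a2, Egr1, Junb, Fosb and Ier2 kept their calls with any library left out. The granulocyte and monocyte marker sums of the KLS- libraries were above those of all 6 stem cell libraries. So were the sums of 7 erythroid markers (864 and 1872 against 28.6 to 106 RPKM). Mpo made up most of the first sums (7891 and 13120 RPKM in normal and CML KLS- cells). Car1 made up most of the second (804.5 and 1775 RPKM). By gene, 6 of 12 granulocyte and monocyte markers were called lower in stem cells, and 5 had positive differences, none of them called. Of 6 tested erythroid markers 5 were called lower and 1 was on the higher side. The part of these markers in the result was not tested. In sorted bulk samples, fewer cells carrying a transcript and less of it per cell cannot be told apart.

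LT and ST stem cells differed in fewer members. Only Egr3 passed the test between them (higher in LT by 0.88, SE 0.20, adjusted p = 0.0377 by limma with 4 against 2 libraries), so that 1 of 10 members was called higher and none lower, against 2.74% and 2.13% of all genes. At an unadjusted p under 0.05 by limma, 6 members passed, as did 2456 of all 12561 genes. Nr4a2 was higher in LT by 1.46 (SE 0.42, adjusted p = 0.0903), Egr1 by 0.83 (SE 0.35, adjusted p = 0.234) and Fosb by 0.82 (SE 0.23, adjusted p = 0.0818 by limma). Fos was the one member with a negative difference, -0.67 (SE 0.29, adjusted p = 0.234 by limma), at 382 to 714 RPKM in LT and 702 to 918 RPKM in ST libraries. For Fosb, Jun, Jund, Egr1 and Egr3 every LT library exceeded both ST libraries, 5 of 10 members against 12.9% of all genes. The median difference was 0.55 for the members and 0.01 for all genes. Egr3 lost its call without ST-HSC (0.74, adjusted p = 0.358), ST-CML (1.02, adjusted p = 0.175), the 2-month LT-HSC library (0.86, adjusted p = 0.0833) or LT-CML replicate 1 (0.94, adjusted p = 0.0625 by limma). Nr4a2 gained one without the 6-month LT-HSC library (1.06, adjusted p = 0.0248).

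**Figure D2:**
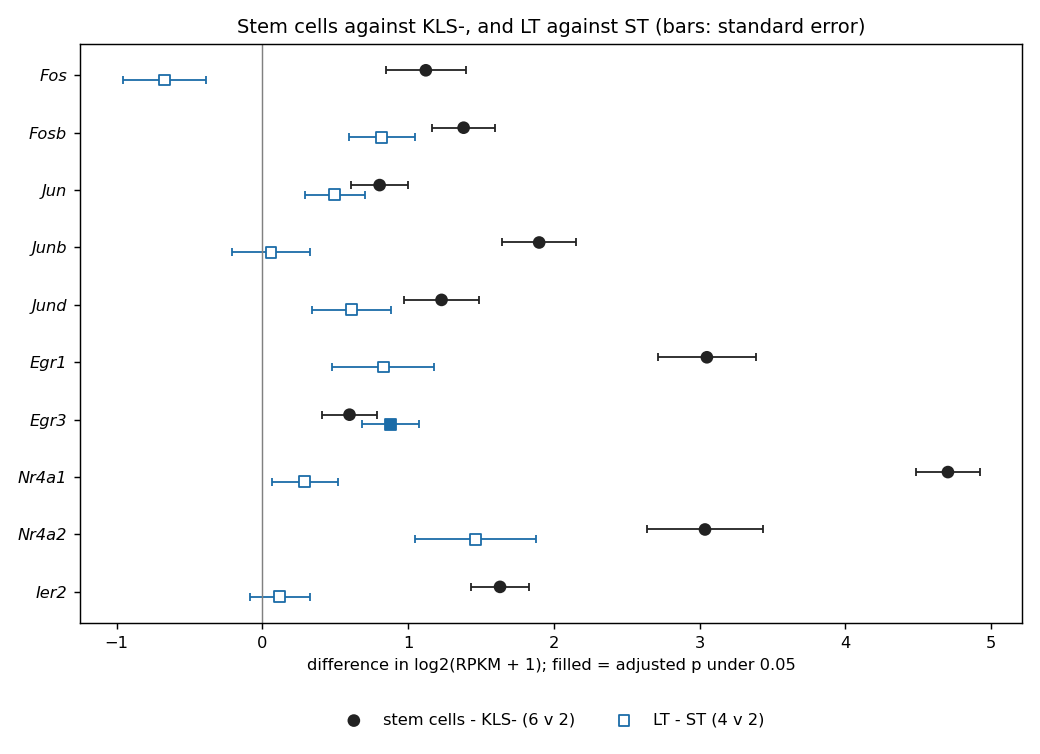
Difference in log2(RPKM + 1) (horizontal axis) between stem cells and KLS- cells (circles) and between LT and ST stem cells (squares) for each gene; bars are standard errors and filled symbols passed an adjusted p of 0.05. All 10 circles lie to the right of 0 and are filled, from 0.60 for Egr3 to 4.70 for Nr4a1, and among the squares only Egr3 is filled.

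Between CML stem cells and normal HSCs, Nr4a1 was the only member called, and lower in CML, in the fit without a covariate. Each group pooled 2 LT libraries and 1 ST library, so the spread within it includes the difference between LT and ST cells. The 3 CML stem cell libraries averaged 96.3 ± 25.9 RPKM (SD, n = 3) and the 3 normal HSC libraries 290 ± 67.3 RPKM (SD, n = 3), 3.02-fold more, and the log2 difference was -1.59 (SE 0.23, adjusted p = 0.0134 by limma, 3 against 3 libraries). Of the 10 members 1 was called lower and none higher, where 1.16% of all genes were lower and 1.18% higher. At an unadjusted p under 0.05 by limma, Nr4a2 and Egr3 passed as well, making 3 of 10 members beside 1573 of all 12561 genes. Nr4a2 was at 8.51 ± 4.05 RPKM (SD, n = 3) against 38.9 ± 34.2 RPKM (SD, n = 3), a log2 difference of -1.80 (SE 0.62, adjusted p = 0.264 by limma). Its highest CML value, 12.3 RPKM in LT-CML replicate 2, lay just under the lowest normal value, 12.5 RPKM in ST-HSCs. The groups did not overlap for Nr4a1 and Nr4a2, 2 of 10 members lower against 11.4% of all genes. The exact two-sided permutation test of either gene gave p = 0.1, the smallest that 3 against 3 libraries allow.

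The other members did not pass. Egr3 differed by -0.84 (SE 0.34, adjusted p = 0.361), Fosb by -0.49 (SE 0.35, adjusted p = 0.658), Egr1 by -0.44 (SE 0.41, adjusted p = 0.744), Jun by -0.41 (SE 0.25, adjusted p = 0.581) and Junb by -0.39 (SE 0.26, adjusted p = 0.625 by limma). Jund differed by -0.13 (SE 0.34), Ier2 by 0.22 (SE 0.19) and Fos by 0.27 (SE 0.33), with adjusted p values of 0.922, 0.723 and 0.809 by limma. The median difference was -0.42 for the members and -0.04 for all genes. Nr4a1 remained called without the 6-month LT-HSC library (-1.41, adjusted p = 0.0440) and without both libraries with Y-linked RNA (-1.62, adjusted p = 0.0275), and lost its call without LT-CML replicate 1 (-1.48, adjusted p = 0.0687) or with no minimum on RPKM (adjusted p = 0.0562 by limma). Egr3 passed without ST-HSC (-1.23, adjusted p = 0.0394 by limma). With LT or ST as a covariate, 3 members were called lower, with adjusted p = 0.0194 for Egr3 and 0.0289 for Nr4a2 by limma.

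Within LT cells alone, Nr4a1 and Egr3 were called lower in LT-CML than in LT-HSCs, 2 of 10 members against 0.788% of all genes (limma, 2 against 2 libraries in a fit of all 8 with 1 mean for each population, 2 residual degrees of freedom). Nr4a1 differed by -1.58 (SE 0.28, adjusted p = 0.0416) and Egr3 by -1.04 (SE 0.15, adjusted p = 0.0218 by limma). The Nr4a1 call was lost with quantile or upper-quartile scaling (adjusted p = 0.0980 and 0.0677 by limma). The Egr3 values of about 12 and 17 reads in LT-CML against 53 and 84 reads in LT-HSCs carry counting errors of 10.9% to 28.3%. Nr4a2 had the largest difference, -2.01 (SE 0.45, adjusted p = 0.0868 by limma), and passed with a minimum mean of 1 RPKM (adjusted p = 0.0358 by limma). Its difference was -2.77 without the 2-month LT-HSC library and -1.26 without the 6-month library. Fosb (-0.72, adjusted p = 0.283), Jun (-0.56, adjusted p = 0.408) and Egr1 (-0.54, adjusted p = 0.684) did not pass. Egr3, Nr4a1, Nr4a2, Fosb and Jun were lower in both LT-CML libraries than in both LT-HSC libraries, 5 of 10 members against 23% of all genes. The calls were fragile: without the 6-month LT-HSC library Nr4a1 was at -1.31 (adjusted p = 0.240) and Egr3 at -0.90 (adjusted p = 0.120 by limma), and with any other of the 4 LT libraries left out neither was called. Against the 2-month LT-HSC library alone Egr1 (0.10), Junb (0.06) and Jund (0.26) changed sign.

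The single libraries of ST and KLS- cells were compared by their values, without a test, since neither side has a replicate. ST-CML was lower than ST-HSC by 1.61 on the log2 scale for Nr4a1 and 1.36 for Nr4a2, the 2 of 10 members past a 2-fold difference (2.01% of all genes were as much lower), while Fos (0.39) and Ier2 (0.50) were higher in ST-CML. The Nr4a1 ratio, 3.07-fold, stood beside 2.998-fold between the LT means. In KLS- cells 9 members were lower in the CML library and Egr3 was at 0 against about 3 reads; Egr1 was lower by 1.54 and Nr4a1 by 1.03, and these 2 of 10 were past 2-fold (1.39% of all genes). Fosb (-0.98), Jun (-0.98), Junb (-0.82) and Fos (-0.66) were nearer to it, and the member median was -0.74 against -0.01 for all genes. The disease effect in LT cells minus that in KLS- cells was called in none of the 10 members by limma, with a smallest adjusted p of 0.862 (Egr3) and 1 member at an unadjusted p under 0.05. Among all genes 0.00796% were called higher and 0.0159% lower in that test. It shares no library between its 2 effects, but its KLS- effect has no replicate.

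**Figure D3:**
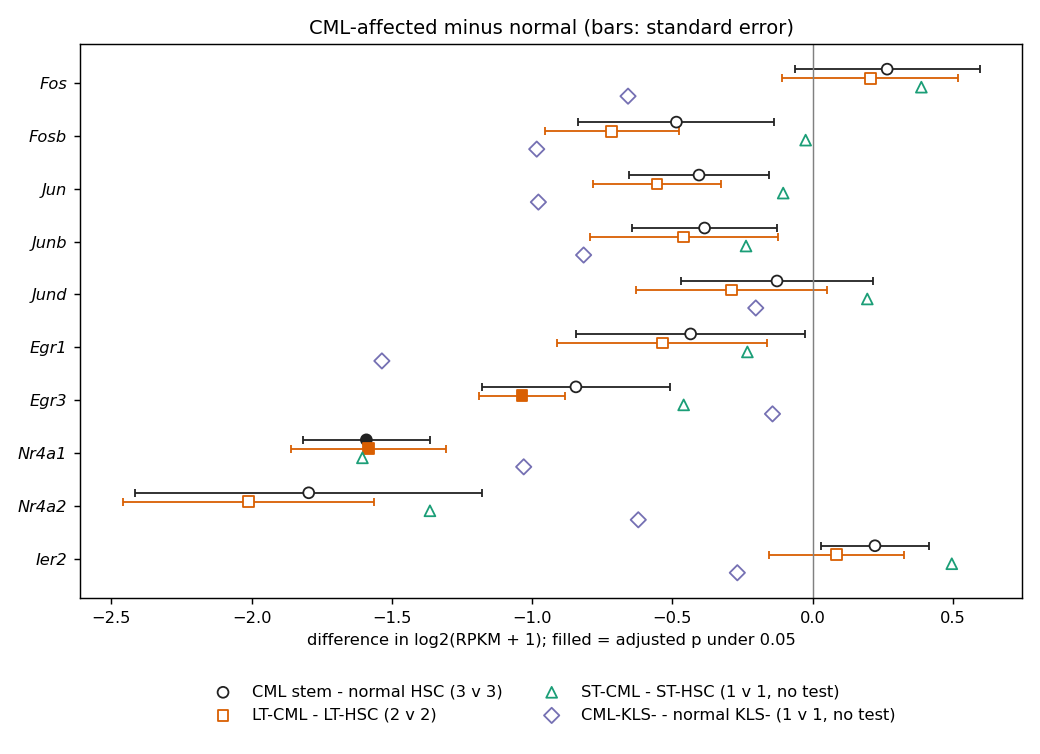
Difference in log2(RPKM + 1) between CML-affected and normal cells (horizontal axis) for each gene in 4 comparisons; bars are standard errors where libraries were replicated, filled symbols passed an adjusted p of 0.05, and triangles and diamonds are single libraries with no test. Nr4a1 lies between -1.61 and -1.03 in all 4 comparisons, and Fos and Ier2 lie to the right of 0 in the 3 stem cell comparisons only.

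The replicates of LT cells differed in their immediate early genes. All 10 members were higher in the LT-HSC library labelled 6 months than in that labelled 2 months, and 4 of 10 were past 2-fold, where 1.19% of all genes were as much higher. Nr4a2 was higher by 1.51 on the log2 scale, Egr1 by 1.28, Jund by 1.09 and Junb by 1.04, and the other members by 0.27 (Egr3) to 0.61 (Fosb). With 1 library at each age, age cannot be told apart from the library, and 7 of the 12 granulocyte and monocyte markers were past 2-fold higher in the 6-month library, S100a8 among them. The other immediate early transcription factors listed for comparison had 19 of 22 genes on the higher side in that library (median 0.46), and the heat shock genes 1 of 14 (median -0.53). Between the LT-CML libraries the members went both ways. Fos was lower in replicate 2 by 0.81 and Ier2 by 0.49, Nr4a1 was higher by 0.64 and Nr4a2 by 0.41, and Egr1, Jun, Jund and Egr3 differed by less than 0.1.

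**Figure D4:**
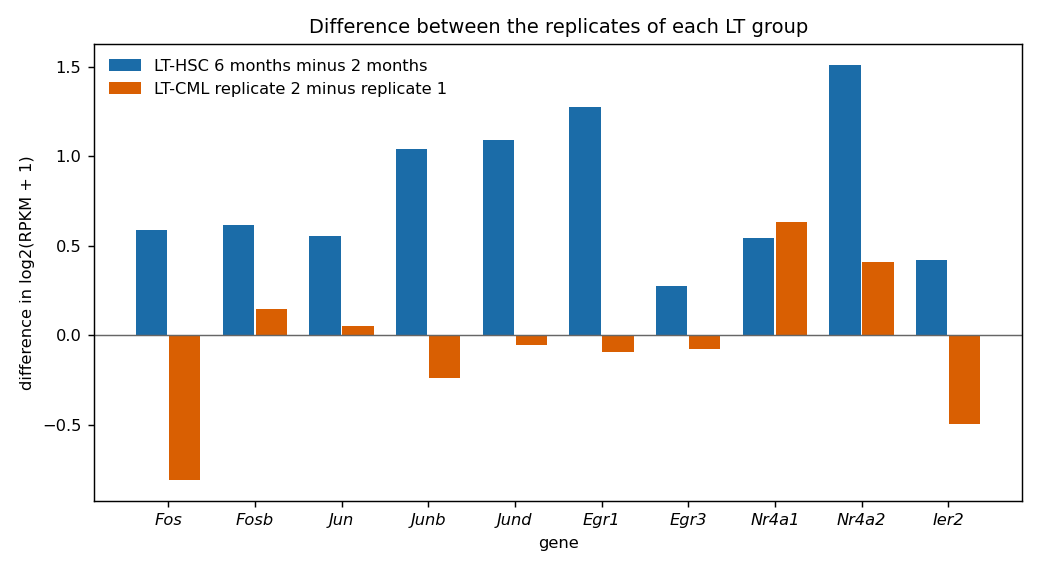
Difference in log2(RPKM + 1) (vertical axis) between the LT-HSC libraries labelled 6 and 2 months (blue) and between LT-CML replicates 2 and 1 (orange) for each gene. All 10 blue bars are above 0, from 0.27 for Egr3 to 1.51 for Nr4a2, and the orange bars range from -0.81 for Fos to 0.64 for Nr4a1.

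Genes that act with or under the members were read from lists that were drawn up for this pathway with earlier results of these data known. The stem cells were first set against KLS- cells. Of 12 tested AP-1 partners 6 were higher and none lower, including Fosl2, another Fos family subunit (2.15, adjusted p = 0.00274, and 0.0571 without the normal KLS- library), and Maff (1.37, adjusted p = 0.00152). Among 22 other immediate early transcription factors 14 were higher, with Csrnp1 (2.29, adjusted p = 2.06e-05) and Bhlhe40 (2.26, adjusted p = 0.00011) ahead, and 3 were lower, including Cebpd (-1.10, adjusted p = 0.000619 by limma), a myeloid differentiation factor. Of 14 feedback inhibitors of MAP kinase signalling 10 were higher, with Spry1 (2.23, adjusted p = 7.51e-05) and the phosphatase Dusp5 (1.81, adjusted p = 0.000174), and of 17 mRNA decay and antiproliferative genes 12 were higher, with the kinase Plk2 (4.08, adjusted p = 7.88e-06) and Rgs1, of the regulator of G protein signalling family (3.21, adjusted p = 7.16e-05 by limma). The upstream kinases and SRF and CREB factors had 12 of 28 higher and 1 lower, Rps6ka1 (-1.07, adjusted p = 0.000651 by limma). Heat shock genes went the other way, with 2 of 14 higher and 8 lower, including the mitochondrial chaperone Hspd1 (-1.45, adjusted p = 0.00029 by limma). These shares stand beside 26.5% of genes higher and 22.2% lower, and the list medians were 0.50, 0.90, 0.97, 1.01, 0.19 and -0.72 in that order.

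Between CML stem cells and normal HSCs, 2 genes of the 6 lists passed. Sgk1, a serum- and glucocorticoid-induced kinase, fell from 37.4 to 47.7 RPKM in normal HSCs to 9.90 to 22.5 RPKM in CML stem cells (-1.46, SE 0.27, adjusted p = 0.0374 by limma). Klf4, another zinc-finger factor, fell from 10.85 to 19.4 RPKM to 3.91 to 6.33 RPKM (-1.29, SE 0.25, adjusted p = 0.0466 by limma). The groups overlapped for neither gene, and the call of Klf4 was lost with any library left out and that of Sgk1 with any but LT-CML replicate 2. Fosl2 (-2.02, adjusted p = 0.0720), Atf3, a CREB family factor induced by stress (-2.02, adjusted p = 0.0533), and Crem, the CREB family modulator (-1.17, adjusted p = 0.179 by limma), had large differences that did not pass in the fit without a covariate. With LT or ST as a covariate Fosl2 and Atf3 passed (adjusted p = 0.0164 and 0.0212 by limma), and Atf3 also passed without LT-CML replicate 2 (-2.56, adjusted p = 0.00224). Atf3 was at 12.7 to 14.4 RPKM in normal HSCs and at 1.42 to 6.48 RPKM in CML stem cells. No MAP kinase feedback inhibitor and no heat shock gene passed in the fit without a covariate, and the largest differences in these lists were those of Spry1 (-0.87, adjusted p = 0.114) and Dnajb4 (-0.66, adjusted p = 0.0962 by limma). Dnajb4 passed with LT or ST as a covariate (adjusted p = 0.0244), and with all 8 libraries and population as a covariate Spry1 (0.0214), Dusp6 (0.0301) and Dnajb4 (0.0252 by limma) did. Spry1 also passed without LT-CML replicate 2 (-1.11, adjusted p = 0.0300 by limma). The list medians were -0.20 for AP-1 partners, -0.47 for other immediate early factors, -0.37 for feedback inhibitors, -0.48 for mRNA decay and antiproliferative genes, and -0.17 for both upstream factors and heat shock genes, against -0.04 for all genes.

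In LT-CML against LT-HSCs no gene of these 6 lists was called by limma, and the largest differences were those of Fosl2 (-2.14, adjusted p = 0.0746) and Atf3 (-1.79, adjusted p = 0.140). With a minimum mean of 1 RPKM, Fosl2 (adjusted p = 0.0275), Klf4 (0.0353) and Crem (0.0428 by limma) passed. Between LT and ST stem cells, Egr2, the close relative of Egr3, was higher in LT (0.99, SE 0.16, adjusted p = 0.00963), as was the growth-arrest gene Gadd45g (0.98, adjusted p = 0.0310 by limma). Lower in LT were Rgs2, an inhibitor of G protein signals (-0.80, adjusted p = 0.0157), Zfp36, an mRNA decay factor (-0.73, adjusted p = 0.0497), and Rps6ka1, a MAP kinase-activated kinase (-0.83, adjusted p = 0.0206 by limma). The call of Zfp36 was lost with any of the 6 stem cell libraries left out (adjusted p = 0.0506 to 0.427 by limma). Those of Egr2, Gadd45g, Rgs2 and Rps6ka1 were lost without ST-HSC (adjusted p = 0.111, 0.230, 0.251 and 0.263) or without ST-CML (0.117, 0.254, 0.0567 and 0.110 by limma), and those of Gadd45g (0.0713) and Rps6ka1 (0.0576) also without LT-CML replicate 2. These were 1 of 22 other immediate early factors, 3 of 17 mRNA decay and antiproliferative genes and 1 of 28 upstream factors. No gene of the other 3 lists passed in that fit. The heat shock gene Hsp90aa1 (0.55, adjusted p = 0.0543) passed with a mean of at least 1 RPKM (0.0468), quantile (0.0196) or upper-quartile scaling (0.0130 by limma). Hsp90aa1 and Dusp5 also passed without the 6-month LT-HSC library (adjusted p = 0.0309 and 0.02085 by limma). Egr2 was at 1.40 to 3.74 RPKM in LT and 0.434 and 1.13 RPKM in ST libraries, so that Egr2 and Egr3 were both low transcripts with their highest values in LT-HSCs.

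**Figure D5:**
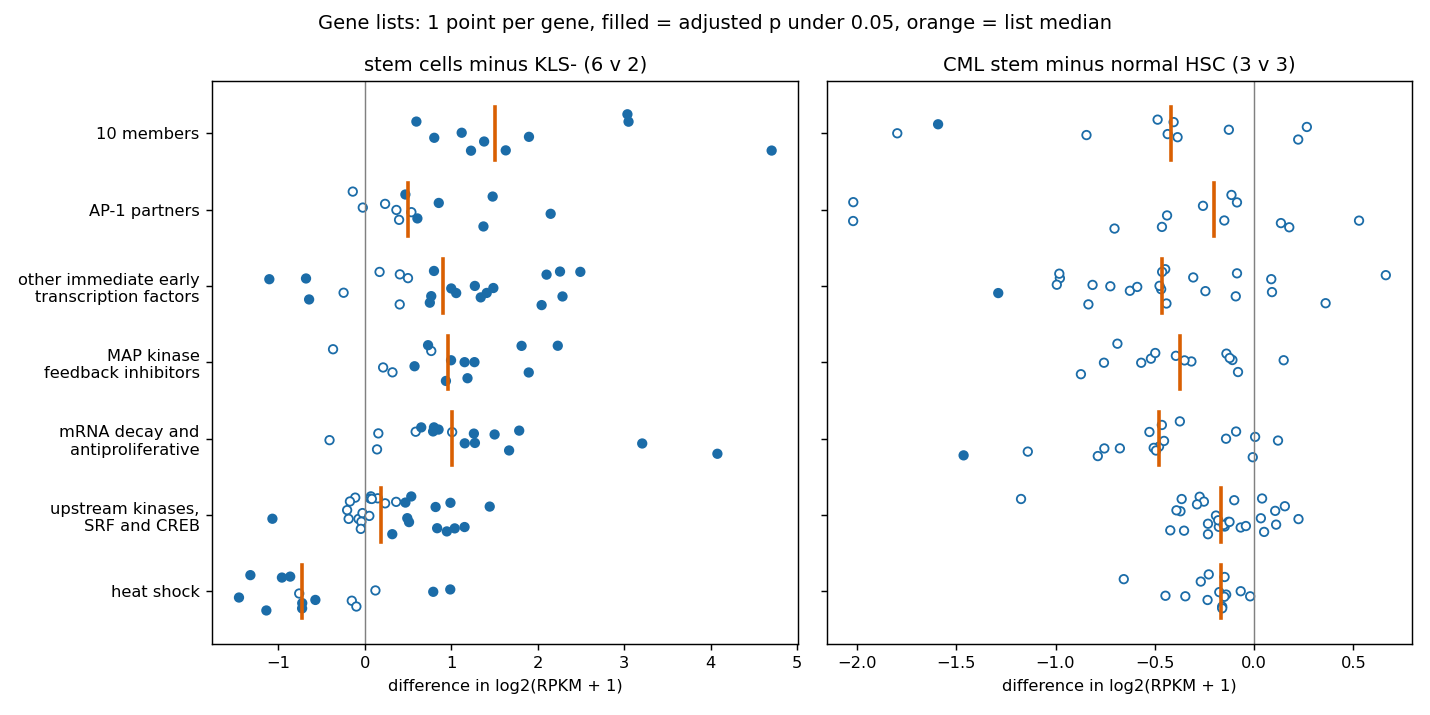
Difference in log2(RPKM + 1) (horizontal axis) of each tested gene of the 10 members and 6 related lists, for stem cells minus KLS- cells (left) and CML stem cells minus normal HSCs (right); filled points passed an adjusted p of 0.05 and orange lines are medians. On the left the member median is 1.51 and the heat shock median -0.72, and on the right 3 points are filled, those of Nr4a1, Klf4 and Sgk1.

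The genes whose pattern was most like that of the members were found by Pearson correlation across the 8 libraries, among 10024 other genes with a mean of at least 1 RPKM. With the mean of the members' standardised log2(RPKM + 1) they were 1500009L16Rik (r = 0.996), Chmp2b (0.993), Smg6 (0.993), Atp8b2 (0.989) and the nuclear RNA Malat1 (0.989). Malat1 was at 322 to 656 RPKM in stem cells and 187.7 and 99.4 RPKM in KLS- cells. The nearest genes to Nr4a1 were Vasp (0.995), Sik1, a salt-inducible kinase (0.995), and Invs (0.994). Sik1 was at 8.57 to 31.0 RPKM in stem cells and at 0.934 and 1.61 RPKM in KLS- cells. Junb was nearest to Dcaf5 (0.993), Zfp292 (0.993) and Car5b (0.991), and Egr1 to Malat1 (0.991), Phf3 (0.991) and 1500009L16Rik (0.991). These values describe 8 libraries that fall into stem cells and KLS- cells, a split that any gene differing between them shares.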

How the data were processed

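RNA from the sorted populations was taken directly into Isogene, and libraries were made with the SMARTer Ultra Low Input kit. Per the methods, the authors primed with oligo-dT, sequenced paired ends on a HiSeq2000, mapped the reads to mm9 and deposited RPKM values, 1 per gene and library. The gene annotation and counting rule are not given in the sources used here. No count model was used, since RPKM is not a count. Oligo-dT priming favours 3' ends, and division by length can then distort levels between genes.

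Depth was estimated from the step between low RPKM values and GENCODE M1 exon lengths on the same build; 93.2% of gene names matched 1 locus. Reads so estimated give counting error only. Tests were run with limma 3.58.1 (R 4.3.3; moderated by an intensity trend) on log2(RPKM + 1) over 12561 genes with a summed RPKM above 1, with Benjamini-Hochberg adjustment over all of them, two-sided, at 0.05. A fold change on this scale understates that of low genes. Single libraries were compared by a 2-fold difference on the same scale. The limma code was tested on simulated data with known changes. That did not cover the single-library comparisons or the tests of a difference in disease effect. The LT-HSC libraries differed in labelled age and in Xist and Ddx3y RNA, so they came from different mice. The LT-CML libraries differed in Ddx3y RNA, so replicate 2 held cells of a mouse not in replicate 1. The number of mice behind each library is not stated. The p-values measure the spread between these libraries, which includes these differences. Comparisons that use the same libraries are not independent.

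The members and gene lists were chosen with earlier results of these data known. Named were all members; from each list up to 4 genes with the smallest adjusted p in a comparison or, where none passed, the 2 with the largest difference; the 5 genes most like the mean of the members and the 3 most like Junb, Egr1 and Nr4a1 over 8 libraries; and sorting markers, Xist and Ddx3y where they touch a result. Not every gene so chosen is printed. Promoters came from RefSeq (GRCm38.p6). The alternatives were a pseudocount of 0.1, no or a higher minimum, scaling by quantiles or upper quartiles, no intensity trend, other covariates and leaving out each library. Python 3.11, pandas 2.3.3 and scipy 1.17.1 were used for the rest.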

Additional observations from a re-analysis of the deposited data

Results flagged for a closer look

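In 3 members the CML library lay on opposite sides of its normal counterpart in ST and in KLS- cells, with 1 library in each arm. Fos was higher in ST-CML by 0.39 on the log2(RPKM + 1) scale and lower in CML-KLS- cells (-0.66), a difference between the effects of 1.05. Ier2 was at 0.50 and -0.27 (difference 0.76), and Jund at 0.19 and -0.20 (difference 0.40). A limma test of the difference, added after seeing the data, gave an adjusted p of 0.9995 for each of the 3 (unadjusted p = 0.139 for Fos, 0.156 for Ier2 and 0.577 for Jund). Its spread came from the 2 LT pairs, since no ST or KLS- arm was replicated, so the missing call says nothing about whether the effects differ. It called 0 of 12561 genes (318 at an unadjusted p under 0.05). Groups held fewer than 4 libraries, so no library was tested as an outlier.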

How the results depend on the processing

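No paired analysis was possible because the normal LT libraries carry ages and no replicate numbers. In CML stem cells against normal HSCs, called members went from 1 to 0 with no minimum on RPKM (193 genes called in all), and to 3 with LT or ST as a covariate (543 genes) or with all 8 libraries and population as a covariate (776 genes); without both libraries with Y-linked RNA, an alternative chosen after seeing the data, 38 genes were called. In LT-CML against LT-HSCs, called members went from 2 to 1 with a pseudocount of 0.1, quantile or upper-quartile scaling, and to 0 with no intensity trend or no minimum on RPKM (0 genes called in all). The call lost was that of Egr3 with the pseudocount (adjusted p = 0.0712 by limma) and that of Nr4a1 with either scaling. In LT against ST, 2 members were called with a pseudocount of 0.1, and 0 with no minimum (283 genes) or a mean of at least 1 RPKM. That mean removed Egr3, so 9 members were tested under it, and Egr3 was not among them. The test of the LT against the KLS- disease effect called 0 genes with a pseudocount of 0.1, no minimum, quantile or upper-quartile scaling or no trend, and 1 with a mean of at least 1 RPKM. With a pseudocount of 0.1, genes past 2-fold numbered 1309 in ST, 1156 in KLS- cells (7 members) and 799 between the LT-HSC libraries; members past 2-fold in KLS- cells numbered 1 under quantile and 4 under upper-quartile scaling. Apart from the removal of Egr3 by the higher minimum, the cause of these shifts was not tested.

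With each library left out in turn, called members ranged from 0 to 2 in the CML stem comparison (115 to 217 genes), 0 to 2 in LT-CML against LT-HSCs (6 to 225 genes), 0 to 2 in LT against ST (110 to 718 genes), 7 to 10 in stem cells against KLS- cells (3178 to 6338 genes) and stayed at 0 for the difference in disease effect (0 to 3 genes). Nr4a1 kept its sign in the CML stem comparison under all 15 alternatives (-1.80 to -1.41).

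Signs changed in some leave-outs, given here as the range over them. In the CML stem comparison these were Egr1 (-0.76 to 0.047) and Jund (-0.41 to 0.29, and 0.24 without both libraries with Y-linked RNA), positive without the 6-month LT-HSC library. In LT-CML against LT-HSCs they were Egr1 (-1.17 to 0.10), Junb (-0.98 to 0.060) and Jund (-0.83 to 0.26), positive without the 6-month library, Fos (-0.20 to 0.61) and Ier2 (-0.16 to 0.33), negative without the 2-month library or LT-CML replicate 1, and Hspa1a (-1.10 to 0.40), positive without the 2-month library. In LT against ST they were Ier2 (-0.14 to 0.38) and Junb (-0.14 to 0.27), negative without ST-HSC and, for Junb, without the 6-month library; without both libraries with Y-linked RNA, Junb was at -0.14 and Nr4a1 at -0.0053. None of these was a call. Egr3, at 0 to 84 reads, is the member most limited by depth.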
